A study of Mus musculus with 6 samples.

Results

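Interferon-stimulated genes were followed in mouse acute myeloid leukaemia cells from animals given AG636 or vehicle. The set is a list of 50 genes given by name, with no measured value in the rule, and sorted here into 10 roles. It was chosen with earlier results of these data known. All 50 are rows of the count table, which lists 54838 genes, and 47 had enough reads to enter the test, which covered 11092 genes. Ifit3b, Ifi204 and Ifi44 were too low to test.

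The leukaemia, called I1DN, carries the alleles IDH1R132H, DNMT3AR882H and NrasG12D on a C57BL/6 background, in both groups alike. The cells were grown in Ptprca mice that had received a sub-lethal dose of radiation, a procedure that leaves part of the host's own blood-forming cells in place. AG636 blocks dihydroorotate dehydrogenase, the mitochondrial enzyme of pyrimidine synthesis, and was given by mouth at 100 mg/kg b.i.d. to 3 mice, while 3 mice received vehicle. The length of treatment is given differently in different legends and is not in the sample labels, and neither source ties a library to bone marrow or to spleen alone. Cells were sorted for high cKit and for low or absent CD11b before RNA extraction, and 3′ end libraries were sequenced. Each library is 1 mouse. The labels do not say whether the mice of a group were given the same leukaemia clone, and they name no batch. The comparison of AG636 with vehicle asks how blocking pyrimidine synthesis alters expression in the leukaemia cells.

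Interferons are secreted proteins that bind receptors on the cell surface and switch on the kinases Jak1 and Tyk2. The kinases activate STAT factors, Stat2 among them, and with Irf9 these bind the interferon-stimulated response element (ISRE) in promoters, while other STAT complexes bind the gamma-activated site (GAS). The genes so induced sense foreign nucleic acid, block translation and viral spread, and set the strength of the pathway itself. In blood stem cells and leukaemia, interferon is known to affect division and differentiation.

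The promoters of the set hold many ISRE letters, and a few are printed here because genes with the same motif had different fold changes. The motif searched was GAAANNGAA on either strand, and the GAS motif was TTCNNNGAA. RefSeq gives a window from 250 bases before to 50 bases after the start site, on GRCm38.p6, for 39 of the 50 genes. An ISRE core lay in the window of 24 of the 39 genes, or 61.5%, against 9.76% of the 27025 genes with a window. A GAS core lay in 10 of the 39 windows, or 25.6%, against 9.55%, and 7 genes held both. A match shows only that these letters are present, and a window without one may miss the promoter in use. For 29 of the 39 genes, the first 30 bases after a start site lay in an annotated transcript of the gene. The whole windows of Ifit3, which was higher in AG636 mice, of Bst2, which was lower, and of Isg15, a widely used marker of interferon exposure that was not called, follow in the direction of transcription with the ISRE core in capitals. Capitals on Ifit3 show the motif as it reads on the opposite strand, and adjoining capitals of Bst2 and Isg15 are overlapping matches.
Ifit3 (chr19:34583279-34583578, plus strand): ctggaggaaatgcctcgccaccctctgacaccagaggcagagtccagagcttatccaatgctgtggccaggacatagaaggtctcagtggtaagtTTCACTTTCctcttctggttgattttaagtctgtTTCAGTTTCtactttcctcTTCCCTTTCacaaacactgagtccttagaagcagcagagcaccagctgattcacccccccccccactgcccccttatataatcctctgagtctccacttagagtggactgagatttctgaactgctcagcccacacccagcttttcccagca
Bst2 (chr8:71537423-71537722, minus strand): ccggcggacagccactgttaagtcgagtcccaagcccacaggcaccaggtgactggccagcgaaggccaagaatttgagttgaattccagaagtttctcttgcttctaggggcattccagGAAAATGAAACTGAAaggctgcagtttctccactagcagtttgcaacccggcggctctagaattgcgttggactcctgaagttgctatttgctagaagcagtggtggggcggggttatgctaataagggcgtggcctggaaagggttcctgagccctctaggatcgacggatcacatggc
Isg15 (chr4:156200769-156201068, minus strand): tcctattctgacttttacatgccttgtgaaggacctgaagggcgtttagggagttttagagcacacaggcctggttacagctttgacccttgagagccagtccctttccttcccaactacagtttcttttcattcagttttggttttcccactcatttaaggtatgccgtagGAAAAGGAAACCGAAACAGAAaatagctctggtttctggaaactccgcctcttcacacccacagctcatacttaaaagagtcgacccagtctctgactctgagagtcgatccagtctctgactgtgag

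Shorter stretches of 29 bases show the core in 3 further genes that were called higher, and in Gbp2 and Irgm1, GTPase genes that were not called and whose fold changes lay on either side of 0. Each is written so that the motif reads forward, with the core in capitals.
Ifi203 (chr1:173942509-173942537, minus strand): aagagctgggGAAATCGAAagctatgaac
Ddx58 (chr4:40239804-40239832, plus strand): ctggccatagGAAATCGAAactgcctcag
Trim30a (chr7:104465210-104465238, plus strand): caggaactgaGAAAAAGAAactaaagaac
Gbp2 (chr3:142620595-142620623, minus strand): ttaagacagtGAAAGTGAAactaaaagag
Irgm1 (chr11:48871426-48871454, minus strand): tcaagaaataGAAACCGAAactgattctc

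Of the 42 ISRE matches, 32 lay wholly before the start site and 2 overlapped a GAS match, and 13 genes held 2 or more in a single window. An ISRE core was found in 4 of the 7 genes called higher, in the 1 gene called lower and in 17 of the 29 genes with a window that were tested and not called. Tested genes with an ISRE core had a median log2 fold change of 0.051 (22 genes), and those without had one of -0.11 (15 genes), given as a description. The core therefore stood in windows of genes on both sides of 0, and no call is read from it.

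**Figure D1:**
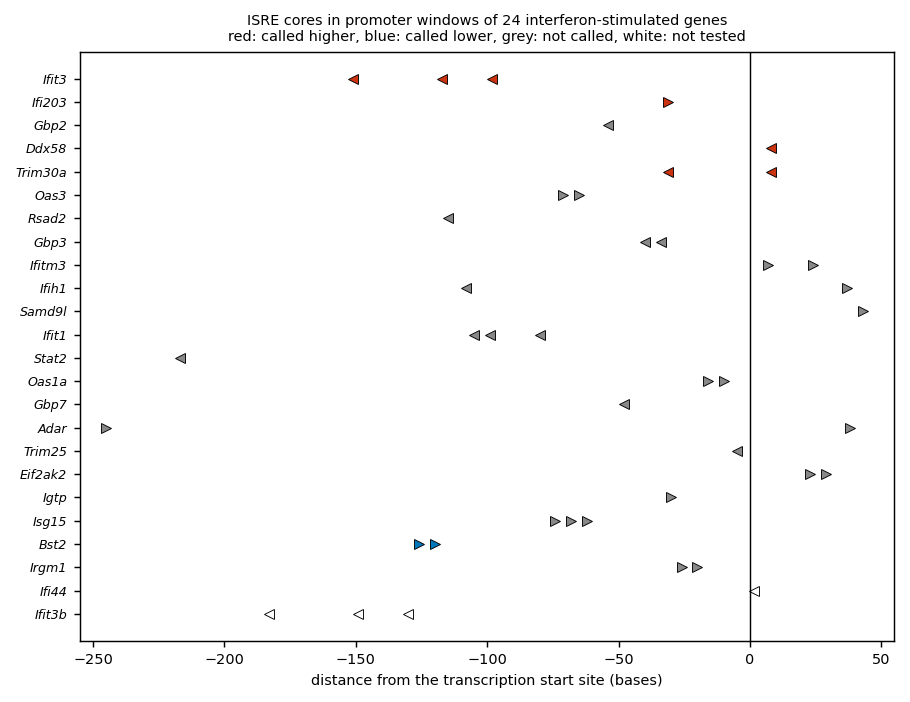
Position of each ISRE core relative to the transcription start site (x axis, bases) in 24 genes (y axis, ordered by fold change, untested genes last). Triangles point in the direction in which the motif reads, and 32 of 42 matches lie wholly to the left of the start site, in genes of every colour.

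The interferon-stimulated genes did not share a direction. Ifit3, Ifi203, Ifit2, Epsti1, Sp100, Ddx58 and Trim30a were higher in AG636 mice, Bst2 was lower, and 39 tested genes, Isg15, Irf7, Stat2 and Rsad2 among them, did not pass an adjusted p of 0.05 in edgeR's quasi-likelihood test. That is 8 of 47 genes or 17.0%, against 21.3% of all genes tested. By direction, the 7 genes called higher were 14.9% of the set, against a background of 10.3%, and the 1 gene called lower was 2.13%, against 11.0%. Ifit3, 1 of the 7, reached the minimum count only in the AG636 group. With at least 10 counts required in every mouse, 6 of 45 genes were called higher and 1 lower, against 1065 and 1198 of all genes. Genes called higher thus made up more of the set's calls than of the calls over all genes, a description with no test.

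Fold changes were above 0 for 24 genes and below 0 for 23, with a median log2 fold change of 0.0050, against 0.029 over all genes tested. They ran from -1.02 for Oasl1 to 1.78 for Ifit3. The 3 AG636 mice lay above all 3 vehicle mice for 9 genes (background 20.5%) and below them for 2 (background 20.6%), so 11 of 47 genes had groups that did not overlap, against 41.1% of all genes. Beyond the called genes these were Ly6e and Herc6, above, and Cmpk2, below. With 3 mice a group, the exact permutation test of a single gene cannot give a two-sided p under 0.1, which all 11 reached.

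Totals ranged from 4634963 to 7906589 counts a library, so that 3 counts correspond to 0.392 to 0.637 CPM, the unit used here for counts scaled to a common library size with TMM factors. Kit, the marker of the sort, was not called, while Itgam, which encodes CD11b, was 12.1, 18.3 and 27.0 CPM in vehicle mice and 60.1, 31.3 and 41.2 CPM in AG636 mice (log2 fold change 1.21, SE 0.31, edgeR adjusted p = 0.0219). Itgam and Ptprc were the 2 called higher of 8 sort and myeloid progenitor markers (25%, against 10.3% of all genes). Fold changes were above 0 for 7 of these 8 and below 0 for 1. They summed to 2128 to 4615 CPM in vehicle mice and 1647 to 4882 CPM in AG636 mice, ranges that overlap. Of 8 mature neutrophil markers, 6 were called higher (Ly6g, S100a9, Ltf, Camp, Ngp and Cxcr2), or 75%, against 10.3% of all genes. DESeq2 also called 6, with Mmp8 in place of S100a9. The 8 markers together summed to 1030 to 2357 CPM in vehicle mice and 2867 to 5870 CPM in AG636 mice. The 7 erythroid markers summed to 1641 to 4664 CPM and 1941 to 3221 CPM, ranges that overlap, and the globin genes Hba-a1, Hba-a2, Hbb-bs and Hbb-bt were not called. Klf1, an erythroid transcription factor of that list, was called lower, from 228, 124 and 102 CPM to 80.9, 78.4 and 53.2 CPM (log2 fold change -1.10, SE 0.28, edgeR adjusted p = 0.0238). Of 7 macrophage markers, 4 were tested and C1qb was called higher in edgeR and DESeq2 but not in limma-voom. The 7 together summed to 14.5 to 18.9 CPM in vehicle mice and 18.5 to 44.5 CPM in AG636 mice, with Vsig4 at 0 in every mouse. B-cell markers summed to 5.53 to 14.2 CPM and 14.0 to 19.3 CPM, with 1 of 5 tested and not called. The T and NK cell markers summed to at most 4.91 CPM and the plasmacytoid dendritic cell markers to at most 2.35 CPM in any mouse, none of them high enough to test. The part of these cells in the differences below was not tested, and in sorted bulk RNA fewer cells of a type and less RNA per cell cannot be told apart.

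**Figure D2:**
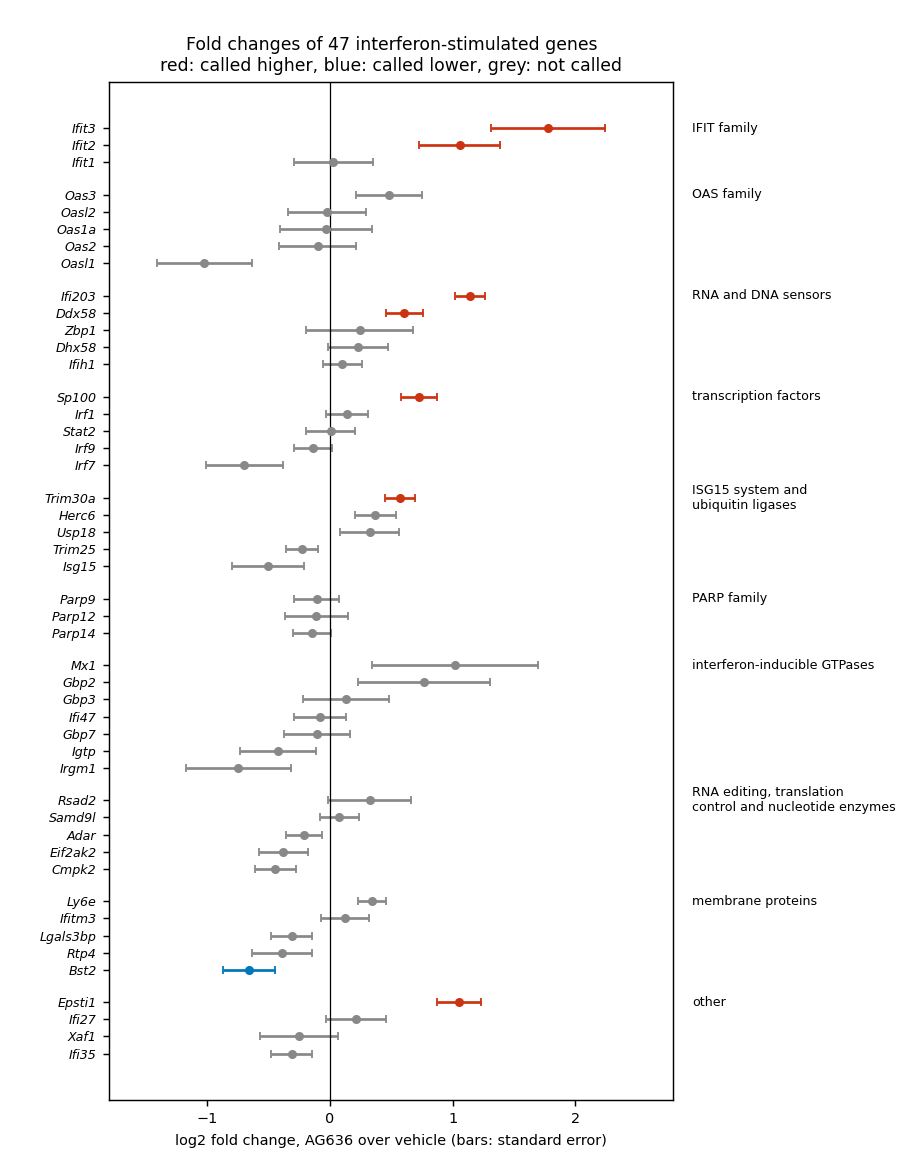
Log2 fold change of AG636 over vehicle (x axis) with its standard error (bars) for the 47 tested genes, grouped by role (y axis). Red points (7) passed the test above 0 and the blue point (1) below it, and grey points lie on both sides of 0 in most roles.

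The IFIT proteins bind foreign RNA and hold back its translation. Ifit3 (chr19:34583531-34588731, plus strand, mm10) had 1.43, 0.785 and 1.25 CPM in vehicle mice 1, 2 and 3 and 2.97, 5.98 and 2.83 CPM in AG636 mice 1, 2 and 3, a 3.43-fold difference (log2 fold change 1.78, SE 0.47, edgeR adjusted p = 0.0253). Ifit2 (chr19:34550694-34576419, plus strand) had 1.78, 2.35 and 2.51 CPM and 3.82, 4.95 and 5.10 CPM (log2 fold change 1.06, SE 0.33, edgeR adjusted p = 0.0476). All AG636 mice stood above all vehicle mice for both genes, with AG636 mouse 2 far above the others for Ifit3. Ifit1, their neighbour on chromosome 19, had 13.9, 11.2 and 6.06 CPM and 8.07, 13.4 and 10.6 CPM, groups that overlap (log2 fold change 0.028, SE 0.32, edgeR adjusted p = 0.960). Ifit3b, which holds 9.86% of the 75-base stretches of the transcript end of Ifit3, had 15 counts in all: 0, 3 and 1 in vehicle mice and 0, 7 and 4 in AG636 mice. Reads of Ifit3 and Ifit3b may therefore be split between them.

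Both IFIT calls rest on few reads (78 counts of Ifit3 and 109 of Ifit2 in all). Ifit3 had 8, 6 and 6 counts in vehicle mice and 14, 29 and 15 in AG636 mice, so it reached the minimum count of 10 only in the group where it is high, and it was not tested when at least 10 counts were required in every mouse. The Ifit3 call was lost without vehicle mouse 1 (edgeR adjusted p = 0.0508), vehicle mouse 2 (adjusted p = 0.0996) or AG636 mouse 2 (adjusted p = 0.0769, log2 fold change 1.35). The Ifit2 call was lost without any 1 of the 6 mice (edgeR adjusted p = 0.0764 to 0.160), and also in DESeq2 (adjusted p = 0.114), limma-voom (adjusted p = 0.0515) and without the filter on low counts (edgeR adjusted p = 0.0943).

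**Figure D3:**
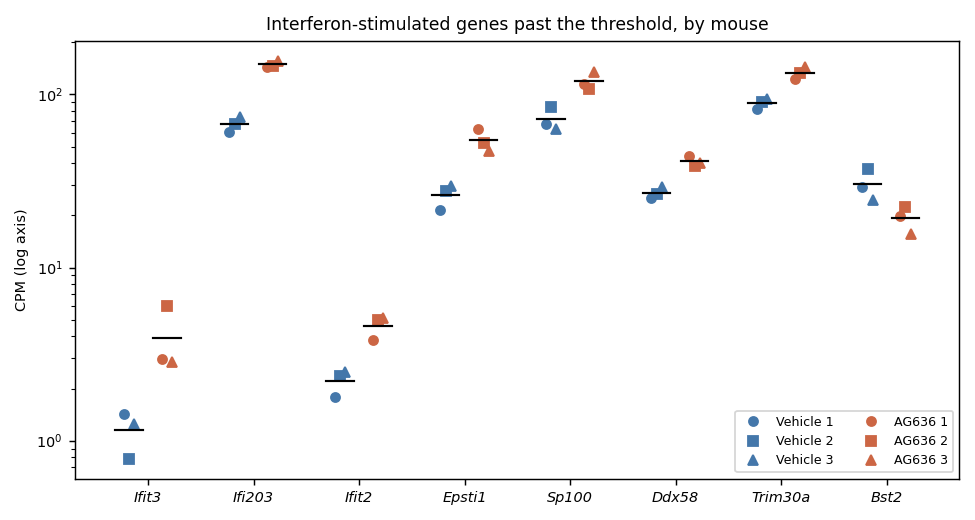
CPM (y axis, log scale) of the 8 genes past the threshold (x axis), 1 point per mouse with the group mean as a line. In all 8 genes the vehicle and AG636 mice do not overlap, with Bst2 alone lower in the AG636 mice, and Ifit3 and Ifit2 are near the lower end of the scale.

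The OAS enzymes make short adenylate chains that switch on RNase L, and some OAS-like proteins lack that activity. edgeR called 0 of the 5 genes (21.3% of all genes) and limma-voom 0, while DESeq2 called Oasl1 lower, the 1 gene with an unadjusted p under 0.05. Roles of 3 to 7 tested genes are too small for 0 calls to be read as a lack of response. Oasl1, a brake on the production of Irf7 protein in mice, had the lowest fold change of the whole set, with 22.3, 13.6 and 13.6 CPM in vehicle mice and 4.25, 13.6 and 6.42 CPM in AG636 mice (log2 fold change -1.02, SE 0.39, edgeR adjusted p = 0.0836). AG636 mouse 2 matched the vehicle mice while the other two were lower. Oasl2 had 34.4, 29.4 and 13.2 CPM and 18.7, 30.7 and 26.6 CPM, with vehicle mouse 3 lowest of all (log2 fold change -0.027). Oas3 had a log2 fold change of 0.48, Oas1a of -0.034 and Oas2 of -0.10, all with overlapping groups. The end of Oas1a shares 46% of its 75-base stretches with Oas1g, and exons of Oasl1 overlap the opposite-strand gene Gm13822, which had 123 counts against 414, so both values are uncertain.

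All 5 tested sensors of RNA and DNA had fold changes above 0, as did 5801 of the 11092 genes tested. Among these sensors 2 were called higher (40%, against 10.3% of all genes). For the 3 not called, the log2 fold change was smaller than its SE. Ifi203 (chr1:173920407-173942672, minus strand), a PYHIN-family protein of the nucleus, had 60.6, 67.9 and 74.2 CPM in vehicle mice and 145, 146 and 157 CPM in AG636 mice (log2 fold change 1.14, SE 0.12, edgeR adjusted p = 0.00202). The groups were far apart and the mice within each close together. Exons of Ifi203 overlap those of its family member Mndal on the same strand, and how reads of the shared stretch were assigned is not given in the sources used here. Mndal was called higher too, from 54.6, 47.6 and 58.3 CPM to 85.2, 97.3 and 86.1 CPM (log2 fold change 0.75, SE 0.13, edgeR adjusted p = 0.00685). The related Ifi204 had 3, 3 and 1 counts in vehicle mice and 6, 15 and 5 counts in AG636 mice and was not tested.

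Ddx58 (chr4:40203773-40239828, minus strand), which encodes the viral RNA sensor RIG-I, had 25.3, 26.6 and 29.3 CPM and 44.4, 38.8 and 40.2 CPM, again with no overlap (log2 fold change 0.61, SE 0.15, edgeR adjusted p = 0.0218). Without vehicle mouse 1, vehicle mouse 2, AG636 mouse 1 or AG636 mouse 3 the adjusted p from edgeR rose to 0.0733, 0.0691, 0.0772 or 0.0646, past the threshold. The 2 other helicases of that class did not pass the test, Ifih1, or MDA5, with a log2 fold change of 0.10 and Dhx58, or LGP2, with one of 0.23. Zbp1, a sensor of Z-form nucleic acid, varied most within the vehicle group of this role, with 15.2, 9.29 and 3.34 CPM in vehicle mice and 9.56, 14.8 and 8.87 CPM in AG636 mice (log2 fold change 0.24, SE 0.44).

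Among the 5 transcription factors, only Sp100 was called (20%, against 21.3% of all genes). Sp100 (chr1:85649988-85709998, plus strand), a scaffold of nuclear bodies, had 67.4, 84.6 and 63.3 CPM in vehicle mice and 114, 108 and 135 CPM in AG636 mice (log2 fold change 0.73, SE 0.15, edgeR adjusted p = 0.0116), without overlap. The factors that carry the interferon signal did not pass the test. Stat2 had a log2 fold change of 0.0050 (SE 0.20) and Irf9 of -0.14 (SE 0.16). Irf1, the gamma-interferon responsive factor, had 123, 94.3 and 98.2 CPM and 98.6, 106 and 142 CPM (log2 fold change 0.14). Irf7, the amplifier of type I interferon production, had 38.9, 29.8 and 14.0 CPM and 16.1, 19.0 and 16.0 CPM (log2 fold change -0.70, SE 0.31, edgeR adjusted p = 0.133). Vehicle mouse 3 lay below all 3 AG636 mice for Irf7, and the other vehicle mice lay above them. Exons of Irf7 overlap the opposite-strand gene Phrf1, which had 3410 counts against 766 and makes the Irf7 value uncertain.

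Isg15 is a ubiquitin-like protein that is attached to other proteins, and Usp18 removes it. Isg15 had 71.0, 58.2 and 26.5 CPM in vehicle mice and 35.5, 41.2 and 33.6 CPM in AG636 mice (log2 fold change -0.50, SE 0.29, edgeR adjusted p = 0.243). As with Irf7, vehicle mouse 3 was below the AG636 mice in a vehicle group otherwise above them. The ubiquitin ligase Trim30a (chr7:104409025-104465193, minus strand) was called higher, from 82.9, 90.9 and 94.7 CPM to 122, 133 and 143 CPM (log2 fold change 0.57, SE 0.12, edgeR adjusted p = 0.0126). Without AG636 mouse 3 its adjusted p from edgeR was 0.0544, and its fold of 1.49 is just under 1.5. Trim25, a ligase that acts on RIG-I, had 101, 95.0 and 94.9 CPM and 76.0, 76.5 and 95.1 CPM (log2 fold change -0.23, not called). Herc6, the mouse ligase for Isg15, had groups that did not overlap, 20.9, 22.2 and 18.6 CPM against 24.6, 28.9 and 26.4 CPM, and did not pass (log2 fold change 0.37, SE 0.17, edgeR adjusted p = 0.138). Usp18 had a log2 fold change of 0.32, with AG636 mouse 3 above the other 5 mice.

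The PARP enzymes of the set attach ADP-ribose to proteins. Of the 3, 0 were called by edgeR (21.3% of all genes), DESeq2 or limma-voom, with 0 at an unadjusted p under 0.05. Parp14 had 38.7, 42.5 and 36.8 CPM in vehicle mice and 31.4, 37.5 and 37.8 CPM in AG636 mice (log2 fold change -0.15, SE 0.15). Parp9 and Parp12 each had a log2 fold change of -0.11. Exons of Parp9 overlap those of its partner Dtx3l on the opposite strand, which had 2189 counts against 1225.

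Of the interferon-inducible GTPases, the GBP and immunity-related proteins coat the vacuoles of intracellular microbes. Among the 7 genes, 0 were called by edgeR (21.3% of all genes), DESeq2 or limma-voom, with 0 at an unadjusted p under 0.05. Without the filter on low counts edgeR called Gbp2 higher and Irgm1 lower. Mice of the same treatment differed widely for these genes. Gbp2 had 36.9, 17.0 and 13.2 CPM in vehicle mice and 12.3, 70.3 and 31.5 CPM in AG636 mice (log2 fold change 0.77, SE 0.54, edgeR adjusted p = 0.331), a 5.71-fold range within the AG636 group. Gbp3, with 15.5, 11.1 and 8.36 CPM and 8.71, 20.2 and 9.63 CPM, and Gbp7, with 131, 90.1 and 64.8 CPM and 71.8, 122 and 71.7 CPM, both had vehicle mouse 1 highest of its group and AG636 mouse 2 highest of its own.

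The immunity-related GTPases had a like spread. Irgm1 had 29.1, 17.5 and 7.94 CPM and 6.58, 15.3 and 10.8 CPM (log2 fold change -0.75, SE 0.43). Igtp had 92.9, 63.6 and 35.9 CPM and 33.3, 58.8 and 51.3 CPM (log2 fold change -0.43), and its exons overlap those of Irgm2 on the same strand. Ifi47 had 145, 129 and 87.6 CPM and 88.8, 145 and 109 CPM (log2 fold change -0.081). In 6 of the 7 GTPase genes vehicle mouse 1 was highest and vehicle mouse 3 lowest of the vehicle group, with Mx1 the exception. AG636 mouse 2 was the highest of its group in all but Mx1, and AG636 mouse 1 the lowest in all but Gbp7. Mx1, a gene of the dynamin-like GTPases, had 0.357, 0.523 and 2.30 CPM and 1.06, 2.06 and 2.83 CPM (log2 fold change 1.02, SE 0.68) on 47 counts in all.

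Enzymes of RNA editing, translation control and nucleotide metabolism held 0 calls among 5 genes in edgeR (21.3% of all genes), DESeq2 and limma-voom. Only 1 gene, Cmpk2, had an unadjusted p under 0.05. Cmpk2, a mitochondrial kinase of pyrimidine nucleotides, had 53.8, 50.6 and 37.8 CPM in vehicle mice and 33.3, 34.4 and 36.8 CPM in AG636 mice, which do not overlap (log2 fold change -0.45, SE 0.17, edgeR adjusted p = 0.0824). Its neighbour Rsad2, or viperin, which turns CTP into a terminator of RNA chains, had 46.2, 41.1 and 18.6 CPM and 32.1, 64.7 and 36.6 CPM (log2 fold change 0.32, SE 0.34), with vehicle mouse 3 lowest and AG636 mouse 2 highest. Adar, the adenosine deaminase of double-stranded RNA, had 75.4, 67.6 and 58.5 CPM and 51.2, 59.8 and 63.2 CPM (log2 fold change -0.21). Eif2ak2, the kinase PKR, had a log2 fold change of -0.38, and Samd9l, which restrains translation, one of 0.074.

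The membrane and secreted proteins held the single gene called lower, 1 of 5 genes (20% called in either direction, against 21.3% of all genes). Bst2 (chr8:71534255-71537456, minus strand), or tetherin, which holds budding virus at the cell surface, had 29.2, 36.9 and 24.7 CPM in vehicle mice and 19.8, 22.3 and 15.7 CPM in AG636 mice (log2 fold change -0.66, SE 0.21, edgeR adjusted p = 0.0484). The groups did not overlap, though AG636 mouse 2 came close to vehicle mouse 3. The call was lost without vehicle mouse 1 (edgeR adjusted p = 0.0795), vehicle mouse 2 (0.157), AG636 mouse 1 (0.107) or AG636 mouse 3 (0.165), and with library size in place of TMM (0.0731).

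Ly6e, a lipid-anchored surface protein, did not overlap between groups, with 843, 1067 and 887 CPM and 1191, 1170.2 and 1179 CPM (log2 fold change 0.34, SE 0.11, edgeR adjusted p = 0.0560), just short of the threshold. Ly6e was called higher in limma-voom, with library size in place of TMM, and in edgeR without vehicle mouse 2 (adjusted p = 0.0408, log2 fold change 0.44). Ifitm3, which blocks virus entry, had 557, 516 and 338 CPM and 462, 637 and 440.0 CPM (log2 fold change 0.12). Rtp4, a receptor chaperone, and Lgals3bp, a secreted glycoprotein, had log2 fold changes of -0.39 and -0.31, and for both the lowest vehicle mouse was mouse 3.

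Of the remaining genes, Epsti1 (chr14:77904239-78002657, plus strand) was called higher, from 21.4, 27.6 and 29.5 CPM in vehicle mice to 63.3, 52.6 and 47.2 CPM in AG636 mice (log2 fold change 1.05, SE 0.18, edgeR adjusted p = 0.00575). Its groups were wide apart. Ifi27, a mitochondrial protein, had 76.0, 88.0 and 70.2 CPM and 102, 53.2 and 116 CPM (log2 fold change 0.21), with AG636 mouse 2 the lowest of the 6 mice. Ifi35 and Xaf1 had log2 fold changes of -0.31 and -0.25 and were not called, and Ifi44 had 5, 10 and 1 counts in vehicle mice and 0, 11 and 1 counts in AG636 mice.

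Mouse by mouse, the set divided the vehicle group. Vehicle mouse 3 was the lowest vehicle mouse for 34 of the 47 genes (72.3%, against 34.3% of all genes tested), and vehicle mouse 1 the highest for 30 (63.8%, against 35.7%). In the AG636 group, mouse 1 was lowest for 23 genes (48.9%, against 29.1%) and mouse 2 highest for 22 (46.8%, against 39.1%). The summed level of the set was 3516, 3482 and 2731 CPM in vehicle mice and 3404, 3870 and 3631 CPM in AG636 mice, ranges that overlap. These shares are a description, since the genes of a mouse are not independent.

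**Figure D4:**
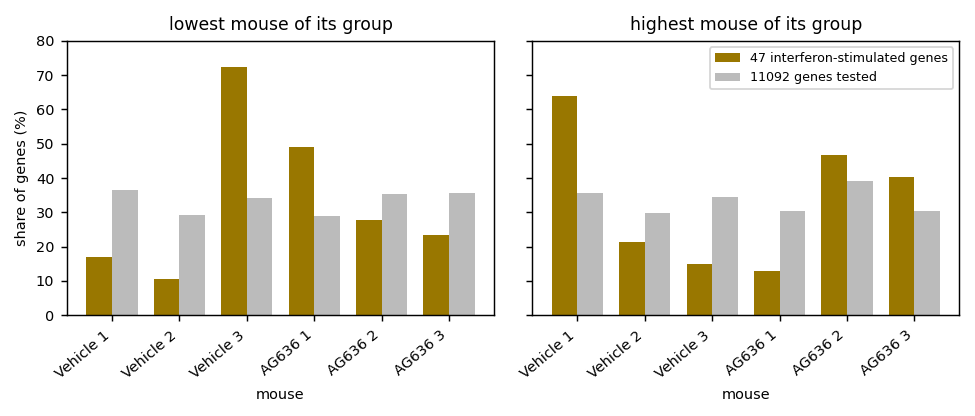
Share of genes (y axis, %) for which each mouse (x axis) was the lowest (left) or the highest (right) of its 3-mouse group, for the 47 interferon-stimulated genes and for all 11092 genes tested. Vehicle 3 is lowest of its group for 72.3% of the set and vehicle 1 highest for 63.8%, against 34.3% and 35.7% of all genes.

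The size of several fold changes below 0 depended on which vehicle mouse was left out. Without vehicle mouse 3, 1298 of all genes were called lower in place of 1222, and 1013 were called higher in place of 1146. In the set, 6 genes were called lower in place of 1, and 6 were called higher in place of 7. The 5 added, named after their values were seen, were Isg15 (log2 fold change -0.83, edgeR adjusted p = 0.0128), Irf7 (-1.03, adjusted p = 0.0116), Cmpk2 (-0.60, adjusted p = 0.0296), Lgals3bp (-0.49, adjusted p = 0.0432) and Rtp4 (-0.64, adjusted p = 0.0491). The median log2 fold change of the set was then -0.15. Without vehicle mouse 1 the shift went the other way. In the set 0 genes were then called lower and 4 higher, against 701 and 524 of all genes, and the median was 0.12. Isg15 was then at -0.24 and Irf7 at -0.40, and neither was called. Neither fit is preferred to the one with all mice. Genes called higher varied less within their groups. The larger of the 2 within-group ranges, highest over lowest mouse, had a median of 1.34-fold for the 7 genes called higher against a median of 1.82-fold for the 39 not called, a difference that the test favours by its form.

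**Figure D5:**
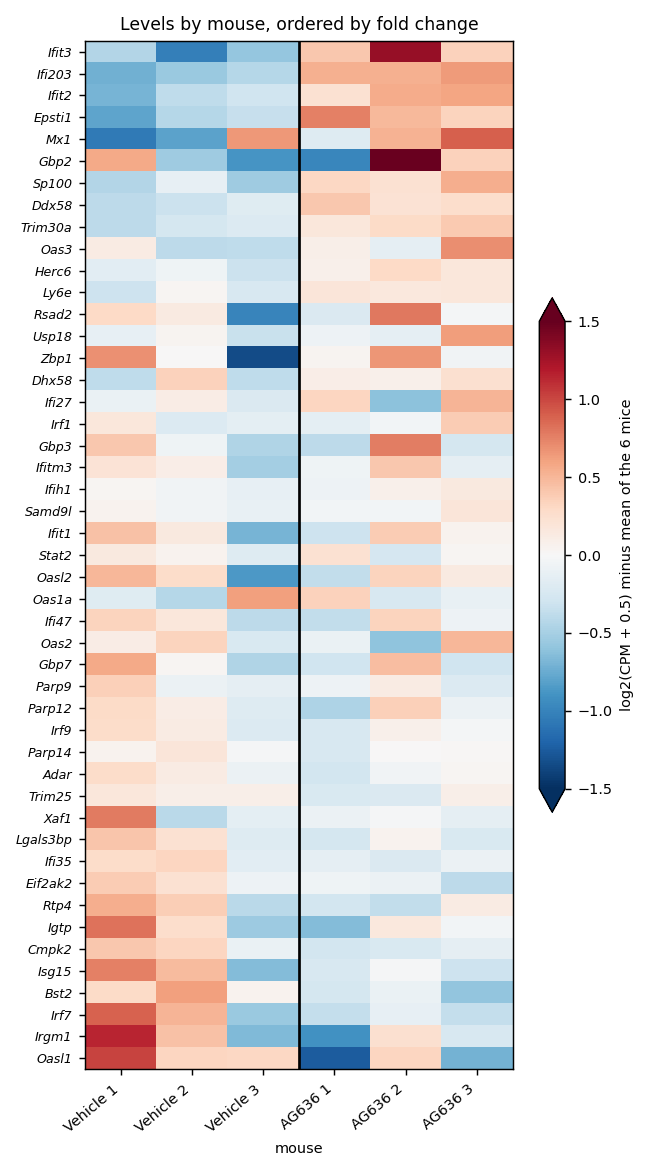
Log2(CPM + 0.5) of each tested gene (y axis, ordered by fold change) in each mouse (x axis), as the difference from the mean of the 6 mice (colour). The first 4 genes are low in all vehicle mice and high in all AG636 mice, while at the bottom vehicle 1 is high and vehicle 3 is near or below the AG636 mice for Isg15, Irf7 and Irgm1.

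Genes upstream of the set and further interferon-inducible genes were examined together as 7 lists of 117 genes, of which 69 were tested. Of these, 13 were called higher (18.8%, against 10.3% of all genes) and 1 lower (1.45%, against 11.0%), which is 20.3% in either direction, against 21.3%. The lists were chosen with earlier results of these data known, so their shares, here and list by list, are a description only. Mndal, 1 of the 13, has exons that overlap those of Ifi203. The ligands were almost without reads. Of 21 interferon genes, 19 had 0 counts in all 6 mice, Ifng had 7 counts and Ifnz 3, and 3 counts a library is the limit that a count of 0 allows.

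Of 11 receptors, kinases and STATs, 10 were tested. Calls were 2 higher (20%, against 10.3% of all genes) and 1 lower (10%, against 11.0%). Ifnar2, a chain of the type I receptor, was higher, from 48.0, 55.6 and 52.4 CPM to 61.2, 79.2 and 78.0 CPM (log2 fold change 0.48, SE 0.15, edgeR adjusted p = 0.0411). Ifngr1, a chain of the gamma-interferon receptor, was lower, from 145, 161 and 119.9 CPM to 93.7, 83.1 and 104 CPM (log2 fold change -0.60, SE 0.15, edgeR adjusted p = 0.0193). The 2 receptors therefore had 1 chain called each, in opposite directions. Stat3, which serves many cytokines, was higher, from 179, 199 and 265 CPM to 312, 360.0 and 392 CPM (log2 fold change 0.73, SE 0.16, edgeR adjusted p = 0.0135).

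Of 16 genes that induce interferon, 13 were tested and 2 were higher (15.4%, against 10.3% of all genes), the kinase Tbk1 (log2 fold change 0.64, SE 0.20, edgeR adjusted p = 0.0449) and the factor Irf5 (0.98, SE 0.21, adjusted p = 0.0132). Of 6 other interferon regulatory factors and their partners, 5 were tested and 2 were higher (40%, against 10.3% of all genes). These were Irf2, a repressor at interferon response elements (0.58, SE 0.15, adjusted p = 0.0217), and Irf2bpl (0.90, SE 0.21, adjusted p = 0.0169). The 7 negative regulators all had fold changes above 0, as did 5801 of the 11092 genes tested. Only 1 of the 7 was called higher (14.3%, against 10.3% of all genes), Pias1 (log2 fold change 0.54, SE 0.14, edgeR adjusted p = 0.0260). Socs3, an inhibitor of cytokine receptors, missed the threshold at 8.02, 7.85 and 17.6 CPM and 22.7, 87.8 and 13.8 CPM (log2 fold change 1.92, SE 0.62, edgeR adjusted p = 0.0505), and AG636 mouse 2 stood far above the rest.

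Further interferon-inducible genes were counted in the same way. Of 11 other GBP and IRG genes, 4 were tested and 0 were called by edgeR (21.3% of all genes), DESeq2 or limma-voom. At an unadjusted p under 0.05 there were 0, while Gbp4 and Gbp9 were called higher without the filter on low counts. Of 45 other interferon-induced genes, 30 were tested. Called lower were 0 in edgeR (background 11.0%), 0 in limma-voom and 1 in DESeq2. Called higher were 5 in limma-voom, 7 in DESeq2 and 6 in edgeR, or 20.0%, against 10.3% of all genes. Besides Mndal these were Slfn5, a nuclear Schlafen protein, with 4.64, 4.32 and 6.06 CPM and 14.9, 14.4 and 22.5 CPM (log2 fold change 1.80, SE 0.27, edgeR adjusted p = 0.00407), the Isg15-activating enzyme Uba7 (log2 fold change 0.98, adjusted p = 0.0120), the Trim30a relatives Trim30b (1.21, adjusted p = 0.0282) and Trim34a (0.91, adjusted p = 0.0142), and Ly6c2 (1.13, adjusted p = 0.0408), a surface marker of monocytes. Ly6a, or Sca-1, had 16.4, 7.72 and 13.6 CPM and 11.0, 59.4 and 17.7 CPM (log2 fold change 1.24, SE 0.54, edgeR adjusted p = 0.125). Without the filter on low counts Ly6a was called. The same AG636 mouse, mouse 2, was the highest for Ly6a, Socs3 and Gbp2.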

How the data were processed

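The authors deposited a table of raw counts, the reads assigned to each gene in each of the 6 libraries. QuantSeq 3′ libraries read transcript ends, and a count is not corrected for length. The submitters' processing notes name cutadapt 1.9.1, HISAT2 2.0.4, Subread 1.5.0-p3 and mm10. Annotation release, use of strand and the handling of multiply mapped reads are not given in the sources used here, so values of overlapping or near-identical genes are uncertain.

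The groups were compared in edgeR 4.0.16 under R 4.3.3 (filterByExpr set to counts of 10 and totals of 15, TMM, quasi-likelihood test, Benjamini-Hochberg adjustment over 11092 genes). Calls have an adjusted p under 0.05, and the SE is the log2 fold change divided by the square root of F. The alternatives included DESeq2 1.42.0 and limma 3.58.1 (voom). Exact permutation tests used log2(CPM + 0.5). GENCODE M21 gave symbols, and all 50 listed genes had the same start and end there. Totals set the precision: the floor of 3 counts covers counting error only. The count table holds 0 other per-sample columns.

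The members and lists were chosen with earlier results of these data known. All 50 genes are named, with values in every mouse for those called and, in each role, for the gene with the most CPM and the one with the largest fold change. Of the pathway lists, the genes called and Ly6a are named, and Socs3, Gbp4, Gbp9 and the ligands with reads were added after their values were seen. Some results are not reported here.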

Additional observations from a re-analysis of the deposited data

How the results depend on the processing

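The main values were 7 genes called higher, 1 called lower and a median log2 fold change of 0.0050. The number called higher was 2 at an adjusted p under 0.01 and 4 to 6 when 1 mouse was left out. The number called lower was 2 in DESeq2, 0 with library size alone, 5 without the filter on low counts, 0 at an adjusted p under 0.01, and 0 to 6 when 1 mouse was left out. The median lay between -0.15 and 0.12 when 1 mouse was left out. Over all genes, calls numbered 399 higher and 452 lower without AG636 mouse 3, against 1146 and 1222 with all mice. Ifi203 and Epsti1 kept their calls in all 15 alternatives, and Sp100 lost its call only at an adjusted p under 0.01. No fold change of the 8 called genes changed sign. Without the filter the genes added were Ifi204 and Gbp2, higher, and Isg15, Oasl1, Irf7 and Irgm1, lower. With library size alone, 1483 genes were called higher and 913 lower, and the median log2 fold change of all genes was 0.12 against 0.095 in the set. Equal replicate numbers mark different mice (correlations of deviations -0.060, -0.18 and 0.23), and with the number as a replicate block 5 genes were called higher and 1 lower, without Ifit3 (edgeR adjusted p = 0.0524) and Ifit2 (edgeR adjusted p = 0.0740). The longer ISRE core, with one more A, was in 20 of 39 windows (51.3%, against 3.99% of all genes). The cause of these changes was not tested.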
